A study of Mus musculus with 9 samples.

Results

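The comparison described here sets tumours grown from a mouse pancreatic cancer cell line, KPCWT, against the same line in culture. Its members were chosen by their labels: the 3 libraries of KPCWT tumours and the 2 libraries of KPCWT cultures, 5 of the 9 libraries of the series. The line carries an intact Itga2, the gene of integrin alpha 2 (CD49b), and is called wild type below (genotype WT). The other 4 libraries come from its CD49b knockout counterpart KPC49bKO, 2 cultures and 2 tumours, and are used only where the lines are compared. Both settings of the wild-type line share its genotype, and every group comes from 1 line. Cultures grew in DMEM with fetal bovine serum and were collected below full confluence. For tumours, the cells were placed under the skin of the flank of syngeneic C57BL/6 mice, which keep their own immune system. The excised tumours were broken up with enzymes, and no sorting of cells is described, so each tumour library can hold RNA of the line and of the host. Age and sex of the mice, the days of growth and any pooling are not given in the labels. The labels' batch tag is the setting itself, so setting, batch and enzyme treatment cannot be told apart.

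Solid tumours are mixtures. Transplanted cancer cells draw in fibroblasts, which lay down fibrillar collagen, blood vessels made of endothelium and pericytes, and immune cells such as macrophages and T cells. Cancer cells in a dish live on plastic in medium rich in serum, glucose and oxygen, while cells of a tumour share nutrients through vessels and meet matrix, cytokines and interferons made by the host. In a bulk library, fewer cells of a type and less RNA per cell cannot be told apart.

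Total counts were 17738774 and 18704676 in the cultures and 17259694, 16980252 and 19562695 in tumours 1, 2 and 3. All 9 libraries lay between 16032912 and 21247023. Tumours 1 and 2 were closer to each other than any other replicates: the chi-square per gene between them was 6.55, against 27.9 between the cultures and 33.3 and 34 for tumour 3 with tumours 1 and 2. The labels call the samples biological replicates, without saying whether they came from separate mice or dishes. The p-values measure the spread between these samples, and how much of it is technical is not known. Levels below are CPM values after TMM scaling, a measure relative to library size and composition, given for culture 1 and culture 2, then for tumours 1, 2 and 3. Fold changes are tumour minus culture on the log2 scale, with the standard error (SE) and the Benjamini-Hochberg adjusted p of edgeR's quasi-likelihood test over all genes tested. A gene was called at an adjusted p under 0.05.

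Of 16234 genes tested, 6091 were called higher in tumours (37.5% of those tested) and 5264 lower (32.4%). With 69.9% of all genes called, a count of called genes in any group below is read against those shares. In 44.1% of genes every tumour lay above both cultures, and in 38.3% every tumour lay below both. The median log2 fold change over all genes tested was 0.12. Of the genes called higher, 1257 had at most 3 counts in both cultures together, a set of transcripts all but missing from the cultured line. These and the genes not called that share this property made up 0.60%, 0.56% and 0.86% of the CPM of tumours 1, 2 and 3. Another 3532 of those called higher had at least 1 CPM in both cultures. In any list below, genes with at most 3 culture counts that were tested passed the filter through the tumours alone. They could hardly be called lower.

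The fold changes followed transcript length and base composition. Among the 9254 genes with at least 10 CPM in both cultures, the median log2 fold change was -1.65 for the 415 genes whose longest GENCODE M21 transcript is under 1 kb and 0.76 for the 510 genes over 8 kb. Within genes of 2 to 4 kb it was -0.81 in the class of lowest GC content and 0.08 in the highest of 3 equal classes. The replicate cultures differed along the same line, with a median log2 ratio of culture 1 over culture 2 of -0.43 under 1 kb and 0.27 over 8 kb. The knockout line gave -1.04 and 0.49 for its own tumours against its own cultures. An offset for length and GC content, fitted in each library, was therefore added as an alternative after seeing the data. With it, 4927 genes (30.4%) were called higher and 5581 (34.5%) lower, 8130 of the main calls were shared in direction, and 417 were called in the opposite direction. The part of RNA quality or library preparation in this trend was not tested. Scaling mattered too: with library totals in place of TMM all values moved up by about 0.51 on the log2 scale, and 8560 genes (52.7%) were called higher against 3211 (19.8%) lower. Of all calls, 53.6% were upward with TMM, 72.7% with library totals, 65.6% with TMM factors from culture-expressed genes alone and 46.9% with the length and GC offsets. Where the offsets changed the call or the sign of a gene named below, both values are given. The plot of fold change by transcript length shows the trend.

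**Figure D1:**
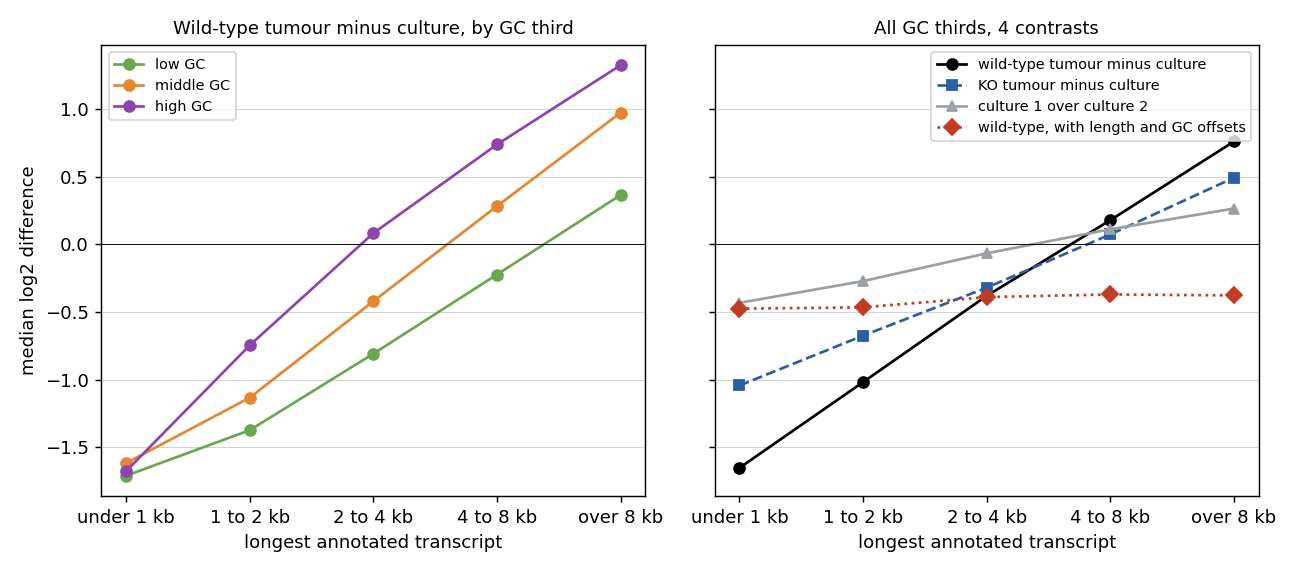
Median log2 difference (y axis) of genes with at least 10 CPM in both wild-type cultures, by length of the longest annotated transcript (x axis). Left, wild-type tumour minus culture in 3 equal classes of GC content. Right, all GC classes for wild-type tumour minus culture, the knockout line's tumour minus culture, culture 1 over culture 2, and the wild-type comparison with length and GC offsets. The medians rise from -1.65 under 1 kb to 0.76 over 8 kb, and the offsets flatten them.

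Itga2 was measured first, since the line is named for its intact copy. The gene lies on chromosome 13 from 114833081.0 to 114932100.0 on the minus strand (GRCm38, GENCODE M21). Its level was 177 and 144 CPM in the cultures and 124, 148 and 141 in the tumours. Culture 2 lay below tumour 2, so the groups overlapped, and the log2 fold change of -0.22 (SE 0.14) was not called (edgeR adjusted p = 0.18). With length and GC offsets it was -0.79 and called (edgeR adjusted p = 4.50e-04), and with library totals it was 0.28 and not called. Itgb1, the beta 1 chain that pairs with alpha 2, stood at 1028 and 1105 CPM in culture and 893, 861 and 851 in tumours (-0.30, SE 0.13, edgeR adjusted p = 0.0697). It was called lower without culture 1 (-0.36, edgeR adjusted p = 0.0442).

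Markers of host cells were among the steepest gains. Fibroblast and matrix genes came first: Col1a2, which encodes a chain of type I collagen, had no count in either culture and reached 504, 329.6 and 866 CPM in tumours. Every tumour lay above both cultures, and tumour 3 was highest. Against a floor of 3 counts over the 2 cultures this was at least 5710-fold higher. Col1a1, its partner chain, was at 2.45 and 0.909 CPM in culture and 784, 559 and 1445 in tumours (9.09, SE 0.59, edgeR adjusted p = 3.58e-06). Col3a1 (type III collagen, 311, 187 and 659 CPM), Postn (periostin, 264, 139 and 189) and Thbs2 (thrombospondin 2, 80.5, 69.4 and 146) had no culture count either and were at least 3922-, 1933- and 990.1-fold higher. Of 30 genes listed for fibroblasts, 21 were called higher, 2 lower, 3 were not called and 4 were not tested. 17 of them had at most 3 counts in the cultures, so most of those tested passed the filter through the tumours alone, and their count describes the tumours without testing the list. The members called lower were Lif (-0.83), a cytokine, and S100a4, a calcium-binding protein, both present in culture. S100a4 went from -0.88 to 0.74 with length and GC offsets, called higher there (edgeR adjusted p = 0.0119), and was not called without culture 2 (edgeR adjusted p = 0.105). The defining fibroblast markers together stood at 2.72 and 0.979 CPM in culture and at 1622, 1087 and 3011 in the tumours.

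Vessel genes followed the same pattern at lower levels. Rgs5, a marker of pericytes, the cells that wrap small vessels, was at 0 and 0.0699 CPM in culture and 31.4, 24.2 and 42.8 in tumours. The 3 tumours lay above both cultures, with a ratio of scaled counts of 980.0 (95% counting interval 176 to 38726). All 13 tested genes of 14 listed for pericytes and smooth muscle were called higher, 10 of the 14 with at most 3 culture counts. Vwf (von Willebrand factor, 14.1, 14.8 and 29.3 CPM) and Cldn5 (an endothelial junction protein, 9.41, 8.23 and 12) had no culture count and were at least 195- and 97.8-fold higher. Of 24 listed blood endothelium genes, 11 with at most 3 culture counts, 20 were called higher and 2 lower. The latter were Sox17, a transcription factor also of endoderm, at 38.6 and 35.7 CPM in culture and 11.4, 9.01 and 13.3 in tumours, and Angpt2 (-0.92), a vessel-destabilising ligand not called without culture 2 (edgeR adjusted p = 0.052). Flt1, a VEGF receptor, was already at 29.6 and 24 CPM in culture and rose to 118, 111 and 114 (2.09, edgeR adjusted p = 4.60e-06). In each of these cell groups tumour 3 had the highest summed level of the defining markers, 82.9 CPM for pericytes against 57 and 44.5, and 139 for endothelium against 78.3 and 58.6.

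**Figure D2:**
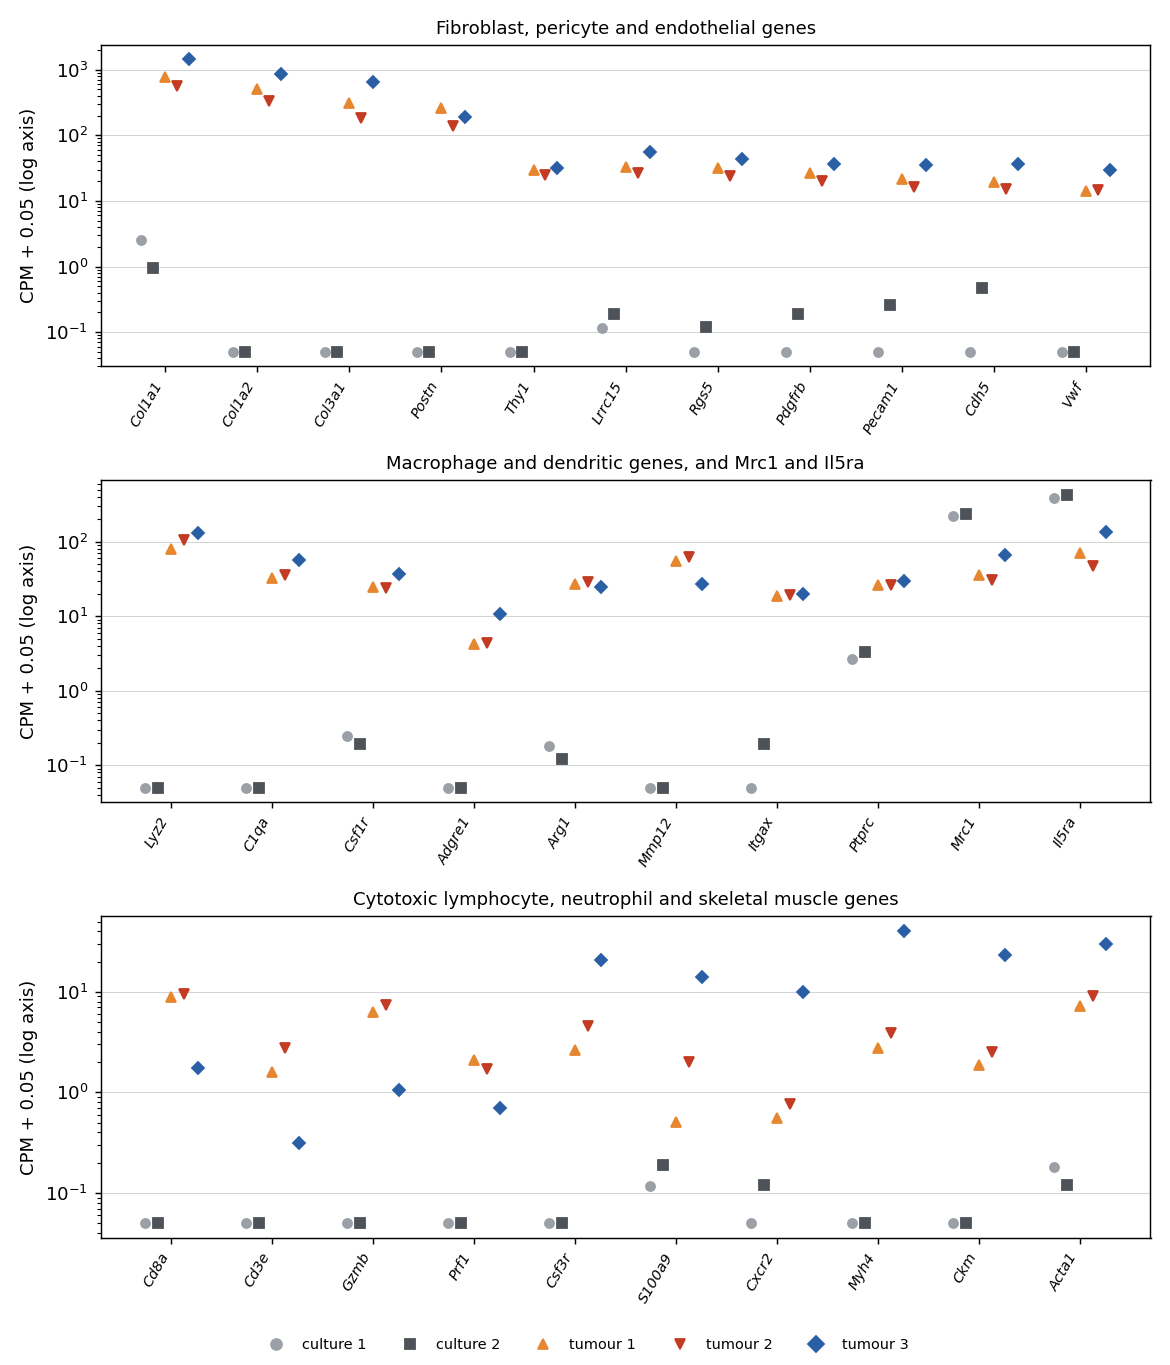
Level of host-cell genes in each wild-type library (y axis, CPM + 0.05 on a log axis; x axis, genes). Grey symbols are the 2 cultures and coloured symbols tumours 1 to 3, 1 point per library; points at 0.05 are libraries with no count. The plotted stromal genes and Lyz2, C1qa and Csf1r lie higher in all tumours, Mrc1 and Il5ra lie higher in culture, and tumour 3 lies below tumours 1 and 2 for Cd8a and Gzmb and above them for Csf3r and Myh4.

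Several macrophage genes with few or no counts in culture were present in all 3 tumours, while others were high in culture. Lyz2, lysozyme of macrophages and neutrophils, had no culture count and stood at 80.2, 105 and 130.5 CPM in tumours, at least 1041-fold higher. C1qa, a complement subunit made by macrophages, was at 32.7, 35.6 and 56.9 CPM against no culture count, at least 416-fold higher. Arg1 (arginase 1, 26.7, 28.8 and 24.5 CPM) and Csf1r (the macrophage growth factor receptor, 25, 24 and 36.4 CPM) had 3 and 5 counts in the cultures. Csf1r gave a log2 fold change of 7.33 (SE 0.39, edgeR adjusted p = 1.62e-06), and the ratio of scaled counts for Arg1 was 260.1 (95% counting interval 88.8 to 1262). Of 28 listed macrophage and monocyte genes 20 were called higher and 3 lower, with 4 not tested. Of the listed genes 19 had at most 3 culture counts. The summed level of the whole list did not rise, with 5118 and 6342 CPM in culture and 4089, 4931 and 4168 in tumours. The 7 defining markers summed to 224 and 238 CPM in culture, nearly all of it Mrc1, and to 216, 242 and 373 in tumours. Those called lower were present in culture. Mrc1, the mannose receptor used as a macrophage marker, was at 224 and 238 CPM in culture and 36.2, 31 and 66.6 in tumours (-2.37, SE 0.27, edgeR adjusted p = 5.51e-05). Nos2 (-1.76), which makes nitric oxide, and Spp1 (-0.57), osteopontin, were the others. Spp1 was at 0.36 and not called with length and GC offsets, and was not called without culture 2 or without tumour 1 (edgeR adjusted p = 0.0917 and 0.107). Among dendritic cell genes, Itgax (CD11c) rose from 0 and 0.14 to 18.8, 19.4 and 19.5 CPM, with a ratio of scaled counts of 283 (95% counting interval 78.1 to 2338). Ptprc (CD45), carried by leukocytes, was at 2.59 and 3.29 CPM in culture and 25.9, 26 and 29.96 in tumours (3.21, edgeR adjusted p = 3.43e-06). The cultures thus held a CD45 signal of their own, above the floor of 0.102 CPM that 3 counts over the cultures give.

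Lymphocyte, neutrophil and muscle genes differed between tumours. Cd8a, the marker of cytotoxic T cells, had no culture count and stood at 8.91, 9.53 and 1.71 CPM in tumours 1, 2 and 3. Tumours 1 and 2 lay together and tumour 3 well below them. Cd3e, a chain of the T cell receptor complex, read 1.56, 2.69 and 0.262 CPM, and its call (edgeR adjusted p = 0.0061) was lost without culture 1 (edgeR adjusted p = 0.06) and without culture 2 (0.0638). Gzmb, a granzyme of killer cells, had no culture count and read 6.29, 7.35 and 1.01 CPM, at least 45.8-fold higher. Prf1, their perforin, read 2.06, 1.66 and 0.656 CPM, also with no culture count and in the same order. Ifng, the gene of interferon gamma, was not tested and had 10, 3 and 2 counts in the 3 tumours and none in culture. Of 24 listed T cell genes 16 were called higher, but 10 without tumour 2. The members called lower were inhibitory receptors of T cells that the cultures held too: Tigit at 33.5 and 32 CPM in culture (-2.74) and Havcr2 at 9.02 and 9.16 CPM (-1.15). Of 16 listed NK and granule genes 9 were called higher and none lower. At most 3 culture counts were found for 16 of the listed T cell genes and 15 of the NK and granule genes, so most of those tested passed the filter through the tumours alone and could hardly be called lower. Ms4a1, a B cell marker, had 0, 0 and 4 counts in tumours 1, 2 and 3.

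Neutrophil genes ran the other way between tumours. Csf3r, the receptor for granulocyte growth factor, had no culture count and read 2.57, 4.56 and 20.9 CPM, tumour 3 being highest. S100a9, a neutrophil alarmin, read 0.0663 and 0.14 CPM in culture and 0.453, 1.97 and 14 in tumours, with a ratio of scaled counts of 57.8 (95% counting interval 19.6 to 281). Its call (edgeR adjusted p = 0.0118) was lost without culture 1 (edgeR adjusted p = 0.134) and without culture 2 (0.124). Of 20 listed neutrophil genes 9 were called higher, and 5 without culture 1 or without culture 2. At most 3 culture counts were found for 16 of those listed. Ltf, lactotransferrin, was the member called lower, from 67.7 and 68.3 CPM in culture to 11.8, 21 and 33.6. Skeletal muscle genes, whose tissue lies beneath the skin of the flank, were present as well: Myh4, a fast myosin, had no culture count and read 2.72, 3.88 and 40.5 CPM, and Ckm, muscle creatine kinase, 1.81, 2.49 and 23.1. Both were highest in tumour 3, and both calls were lost without culture 1 (edgeR adjusted p = 0.068 for Myh4 and 0.0657 for Ckm) and without culture 2 (0.0734 and 0.0708). Of 13 listed muscle genes 12 were called higher, and 11 of those listed had at most 3 culture counts. The defining muscle markers summed to 18.3, 21.2 and 121 CPM in tumours 1, 2 and 3 and to 1.59 and 1.61 in culture. Acinar and islet genes gave little signal: of 13 listed 12 were not tested, and Ins2 (insulin) and Gcg (glucagon) had no count in the 5 libraries.

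Keratins of simple epithelium fell, and other epithelial genes moved both ways. Krt8, Krt18, Krt19 and Krt7, keratins of simple and ductal epithelium, were called lower with log2 fold changes of -1.29, -1.45, -1.33 and -1.35. Krt19 went from 2367 and 2821 CPM to 1167, 947 and 972, and no tumour reached a culture. Epcam, an epithelial adhesion molecule, went the other way, from 3.71 and 3.71 CPM to 111, 161 and 68.8 (4.93, SE 0.38, edgeR adjusted p = 7.52e-06). All tumours lay above both cultures, tumour 2 highest. Of 26 genes of epithelial junctions and keratins 10 were called higher and 7 lower, with a median log2 fold change of 0.23 against 0.12 over all genes. With the offsets 9 were higher and 8 lower. Those higher included the desmosomal genes Jup (1.74) and Dsp (1.64), the latter not called with length and GC offsets (0.13). Snai2, a repressor of epithelial genes, fell from 29.2 and 27.8 to 3.47, 3.21 and 3.63 CPM (-3.05, edgeR adjusted p = 2.67e-06).

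Genes of gut identity split. Dmbt1, a mucosal scavenger protein, went from 246 and 204 CPM to 3503, 4011 and 3977 (4.09, SE 0.19, edgeR adjusted p = 1.26e-06). Tff1, a trefoil peptide of gastric mucus cells, went from 752 and 996 to 98.2, 84 and 143 CPM (-3.01), and Tff3, the intestinal trefoil peptide, from 14.5 and 27.2 to 0.252, 0.829 and 0.262 (-5.55). In each the 3 tumours lay apart from both cultures. Anxa10, an annexin of gastric epithelium, fell by 2.56 on the log2 scale. Of 23 listed genes 9 were called higher and 6 lower. Among endoderm factors, Sox9, which marks pancreatic ducts and progenitors, rose from 26.7 and 26.4 to 158, 181 and 110.3 CPM (2.49, edgeR adjusted p = 1.17e-05).

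Most of the listed Wnt targets and stem cell genes were called higher. Wnt ligands stabilise beta-catenin, which switches on Axin2, Nkd1 and Sp5 in most tissues and Lgr5 in stem cells of the gut. Axin2 went from 0.398 and 0.35 CPM to 23.3, 56.1 and 11.3 (6.31, SE 0.85, edgeR adjusted p = 1.40e-04). Tumour 2 was highest and tumour 3 lowest, and all lay above the cultures. Nkd1, a feedback inhibitor of the pathway, had no culture count and read 9.77, 19.2 and 4.85 CPM, at least 106-fold higher, in the same order. Lgr5 had 1 count in the cultures and read 36.8, 44.9 and 12.1 CPM, a ratio of scaled counts of 887 (95% counting interval 159 to 35061). Prom1 (CD133), a surface marker of stem-like cells, was well expressed in both settings and rose from 106 and 106 to 534, 542 and 489 CPM (2.30). Of 18 listed Wnt targets and stem cell genes 15 were called higher and 1 lower, Aldh1a1, a retinaldehyde dehydrogenase (-1.69) not called without culture 2 (edgeR adjusted p = 0.0531). Of the listed genes 6 had at most 3 culture counts, and such genes could hardly be called lower. With length and GC offsets 12 members of the list were called higher and 1 lower. Host cells can transcribe Wnt targets too, and their share of these counts was not tested.

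Inhibitors of the cell cycle fell steeply at 1 locus. Cdkn2a (the p16 and p19ARF inhibitors) and Cdkn2b (p15) are neighbours on chromosome 4, Cdkn2a at 89274471.0 to 89294653.0 and Cdkn2b at 89306299.0 to 89311039.0 (GRCm38). Cdkn2a stood at 145 and 182 CPM in culture and 4.18, 3.42 and 4.55 in tumours (-5.33, SE 0.17, edgeR adjusted p = 6.25e-07). Cdkn2b stood at 84.1 and 99.9 CPM in culture and 2.42, 2.69 and 3.24 in tumours (-5.04, SE 0.17). The tumours were close to each other and far below both cultures in both genes. Of 20 listed p53 targets and cell cycle inhibitors 13 were called lower and 2 higher. Among the p53 targets, Gdf15, a stress cytokine, fell by 3.80 on the log2 scale, and Trp53inp1, which promotes cell death, fell by 2.15. The counts were 13 and 1 with length and GC offsets. Trp53 itself read 2.85 and 3.22 CPM in culture and 7.65, 6.11 and 10.4 in tumours (1.41, edgeR adjusted p = 0.00239).

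Proliferation genes moved in both directions. Mki67 (Ki-67) rose from 80.6 and 60.01 to 248, 242 and 306 CPM (1.92, edgeR adjusted p = 1.77e-05), while Cdk1, the mitotic kinase, fell from 124 and 157 to 46.8, 41.9 and 66.3 (-1.44). Of 22 mitosis genes 5 were called higher and 5 lower. The number called lower was 9 when tumour 3 was left out and 3 when culture 2 was. Of 24 replication genes 11 were called lower, among them Ccne2 (cyclin E2, -2.18) and Pcna, the sliding clamp (-1.38), and 3 higher, among them the helicase subunit Mcm6 (0.62). Without culture 2 the number higher was 1. With library totals 12 replication genes were higher and 9 lower, the median going from -0.11 to 0.40, and 12 mitosis genes were higher and 3 lower. Myc, a transcription factor of cell growth, went from 362 and 310.0 CPM to 111, 138 and 139 (-1.38, SE 0.15, edgeR adjusted p = 3.50e-05). Of 22 listed MYC targets and nucleolar genes 17 were called lower (22 with length and GC offsets) and 1 higher, Cad (0.77), an enzyme of pyrimidine synthesis. Cad was called lower with the offsets (-0.78, edgeR adjusted p = 0.0173) and was not called without culture 1 or culture 2 (edgeR adjusted p = 0.0511 and 0.122). Gnl3 (nucleostemin) fell by 2.08 on the log2 scale, and Nop56, of the snoRNP core, fell by 1.85. Transcripts of ribosomal proteins, which are short, were called lower in 25 of 26. Their median of -1.76 stood beside -1.65 for the class under 1 kb and -1.02 for that of 1 to 2 kb. The median transcript length of the list was 1200 bases. With the offsets its median fold change was -1.07, beside -0.47 for the class of 1 to 2 kb, and 21 were called lower and 2 higher. Rps3, of the small subunit, went from 3386 and 4932 CPM to 795, 822 and 725.

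Genes of amino acid synthesis and stress fell nearly throughout. When amino acids run short or proteins misfold, translation of the factor ATF4 rises and ATF4 switches on enzymes of serine, asparagine and cysteine supply, transporters and the feedback genes Trib3 and Chac1. Of 24 listed genes 22 were called lower in tumours and none higher, with a median log2 fold change of -2.14 against 0.12 over all genes, and the counts were the same with length and GC offsets. The 2 not called were the transcription factor gene Cebpb (-0.04) and the mTOR inhibitor gene Ddit4 (-0.52). Ddit4 was called lower without tumour 1 (-0.81, edgeR adjusted p = 0.008). Leaving out 1 library gave 20 to 23 lower calls. Psph, the last enzyme of serine synthesis, stood at 247 and 321 CPM in culture and 7.8, 7.3 and 11.4 in tumours (-5.00, SE 0.21, edgeR adjusted p = 1.19e-06). Phgdh, the first enzyme of that pathway, stood at 2367 and 3006 CPM in culture and 148, 166 and 209 in tumours (-3.95, SE 0.19). In both genes the highest tumour was below a 10th of the lower culture. Also lower were Asns, asparagine synthetase (-2.56), Slc7a11, the cystine importer (-2.41), Chac1, which breaks down glutathione (-4.33), and Trib3 (-3.58). Cth, the enzyme that makes cysteine from cystathionine, fell more than any other gene named by the rule: 282 and 344 CPM in culture and 0.805, 1.24 and 2.62 in tumours (-7.61, SE 0.33, edgeR adjusted p = 1.19e-06).

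Promoters of this list were searched for TGATGNAA, a short motif related to the ATF4 site, on both strands, in windows of 250 bases before to 50 after the start (RefSeq, GRCm38.p6). It was present in 3.97% of 32851 windows, in at least 1 window of 4.51% of 27025 genes, and in that of 9 of the 23 listed genes with a window (39.1%). A match describes sequence and is not a site of binding. The 4 members shown were taken from those with a match whose transcripts fell. Psph and Phgdh, which also fell, had no match in their windows. Each window is written 5′ to 3′ on the gene's strand with the motif in capitals. The first match starts -193, -23, -66 and -103 bases from the start in this order.
Chac1 (chr2:119350992-119351291, plus strand): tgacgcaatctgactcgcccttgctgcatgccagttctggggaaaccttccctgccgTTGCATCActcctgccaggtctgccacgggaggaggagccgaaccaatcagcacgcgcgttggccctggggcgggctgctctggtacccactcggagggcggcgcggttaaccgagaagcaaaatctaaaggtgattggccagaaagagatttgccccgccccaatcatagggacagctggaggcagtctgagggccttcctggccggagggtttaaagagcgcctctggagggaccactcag
Asns (chr6:7693160-7693459, minus strand): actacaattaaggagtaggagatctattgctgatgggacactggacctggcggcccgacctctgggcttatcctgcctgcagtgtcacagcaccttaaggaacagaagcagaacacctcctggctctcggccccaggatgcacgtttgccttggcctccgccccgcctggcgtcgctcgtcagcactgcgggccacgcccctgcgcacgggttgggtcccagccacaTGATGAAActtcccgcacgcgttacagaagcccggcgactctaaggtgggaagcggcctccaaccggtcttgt
Slc7a11 (chr3:50443564-50443863, minus strand): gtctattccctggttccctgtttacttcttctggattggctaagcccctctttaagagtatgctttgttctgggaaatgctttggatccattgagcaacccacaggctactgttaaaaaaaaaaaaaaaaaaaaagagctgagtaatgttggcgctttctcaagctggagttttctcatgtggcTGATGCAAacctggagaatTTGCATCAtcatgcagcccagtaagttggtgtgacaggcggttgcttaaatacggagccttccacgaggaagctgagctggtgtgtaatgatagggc
Pycr1 (chr11:120643699-120643998, minus strand): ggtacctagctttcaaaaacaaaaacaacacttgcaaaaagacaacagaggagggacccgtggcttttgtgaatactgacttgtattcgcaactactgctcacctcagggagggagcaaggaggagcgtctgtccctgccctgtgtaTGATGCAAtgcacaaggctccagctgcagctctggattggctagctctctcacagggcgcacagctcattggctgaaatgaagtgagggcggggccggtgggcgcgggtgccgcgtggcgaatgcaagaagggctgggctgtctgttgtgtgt
Pycr1, an enzyme of proline synthesis, fell from 41.5 and 44.6 to 11, 10.6 and 14 CPM (-1.85, edgeR adjusted p = 1.25e-05).

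Genes of the unfolded protein response and targets of NRF2 were mostly called lower as well. Of 16 genes of the unfolded protein response 11 were called lower and 1 higher, Edem1 (0.52), of the degradation branch, which was not called with length and GC offsets (-0.07). Hspa5 (BiP), the main chaperone of the endoplasmic reticulum, went from 3230 and 3804 to 777, 821 and 633 CPM (-2.24, edgeR adjusted p = 6.33e-06). Of 19 targets of NRF2, the factor of oxidative defence, 15 were called lower and none higher. With library totals 10 NRF2 targets were lower and 4 higher, and 8 genes of the unfolded protein response were lower and 4 higher. Hmox1, heme oxygenase, fell from 106 and 93.2 to 17.1, 19.9 and 13.3 CPM (-2.57) and Nqo1, a quinone reductase, fell by 2.37 on the log2 scale. Of 26 genes of glycolysis and hypoxia 12 were called lower and 4 higher (9 without tumour 3, 2 without tumour 2 and 1 without culture 2). With library totals 7 genes of glycolysis and hypoxia were called higher and 6 lower, the median going from -0.40 to 0.11. Ldha, which makes lactate, fell from 2587 and 3380 to 1171, 1101 and 1043 CPM, and Pgk1, another glycolytic enzyme, fell by 1.64 on the log2 scale. Car9, a carbonic anhydrase induced by low oxygen, rose from 3.32 and 3.08 to 9.46, 13.9 and 7.92 CPM (1.70, edgeR adjusted p = 7.87e-04).

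Genes of cholesterol synthesis and of the nuclear-encoded respiratory chain were mostly called lower. Of 24 cholesterol synthesis genes 17 were called lower (20 with length and GC offsets, and 10 with library totals) and 2 higher. Insig1, the sterol sensor that reports the activity of SREBP2, went from 413 and 511 to 126, 101 and 127 CPM (-1.97, SE 0.16, edgeR adjusted p = 8.07e-06). Msmo1 (-1.81) and Pmvk (-1.79), enzymes of the pathway, were called lower. Srebf2 (0.60), the gene of SREBP2, was among those called higher, and with the offsets it changed sign (-0.60). Genes of cholesterol export went up: Abca1, the transporter that loads cholesterol onto HDL, rose from 0.663 and 0.909 to 22.9, 29.1 and 22.3 CPM (4.97, SE 0.28, edgeR adjusted p = 2.05e-06). Apoe, the apolipoprotein, rose from 5.64 and 4.55 to 285, 285 and 297 CPM (5.82), and macrophages, whose markers rose in all 3 tumours, also express it. Of 11 listed genes of this group 6 were called higher and none lower. Of 30 nuclear-encoded respiratory chain genes 29 were called lower and 1 higher, Sdha (0.53), with a median of -1.47 (-0.80 with the offsets, 25 lower and 2 higher). Of 13 mitochondrially encoded transcripts 11 were called lower and none higher, with a median of -1.17. With the offsets 1 was called lower and 1 higher, with a median of 0.17. Library shares of mitochondrial counts were 4.71% and 3.39% in culture and 1.90%, 2.00% and 1.93% in tumours.

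**Figure D3:**
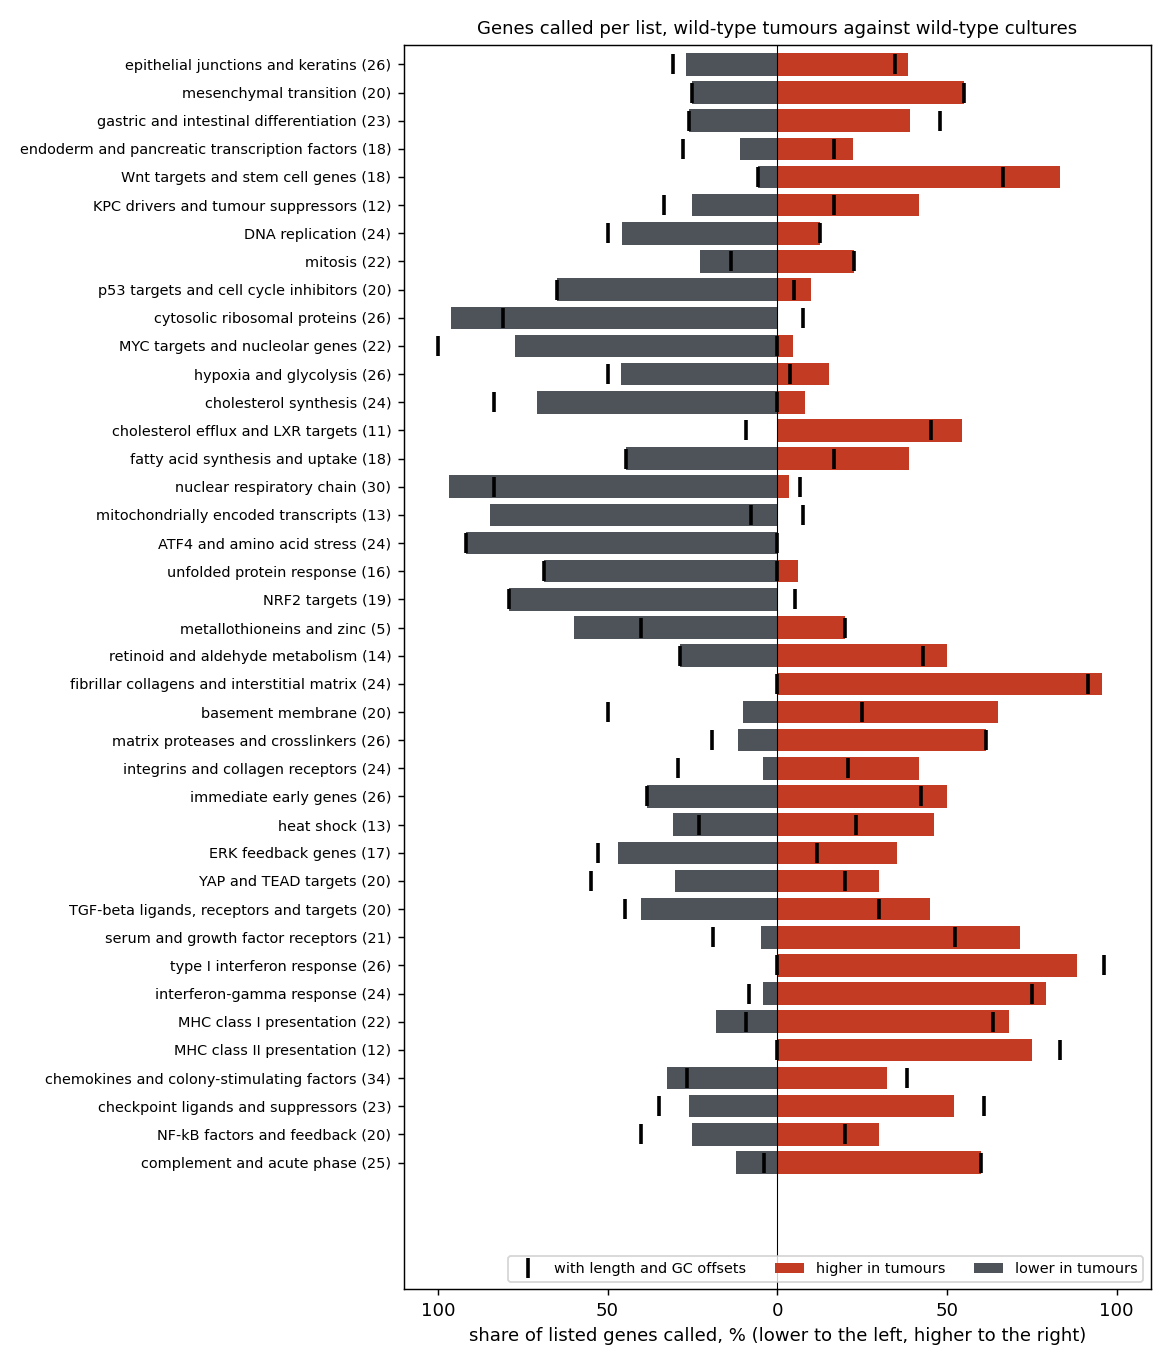
Share of the genes in each list (y axis, number listed in parentheses) that were called higher (red, to the right) or lower (grey, to the left) in wild-type tumours against cultures. Black ticks give the shares with length and GC offsets. The ATF4 list has 22 of 24 lower with and without the offsets, while mitochondrially encoded transcripts go from 11 of 13 lower to 1.

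Genes of fibrillar collagen and interstitial matrix were called higher almost throughout. Of 24 genes of fibrillar collagen and interstitial matrix 23 were called higher and none lower, and 1 was not tested. Of the listed genes, 12 had at most 3 culture counts. Among these, Col12a1 and Col5a2, chains of fibril-associated and fibrillar collagens, had 1 and 2 culture counts and read 114, 81 and 161 CPM and 114, 75 and 139 CPM in tumours. Col6a3, a chain of beaded-filament collagen, had 3 culture counts and read 72, 46.6 and 119.8 CPM, a ratio of scaled counts of 799.8 (95% counting interval 274 to 3880). Some were made by the cultured line: Fn1 (fibronectin) went from 280.3 and 211 to 1104, 1294 and 1037 CPM (2.22, SE 0.18, edgeR adjusted p = 1.01e-05), and Thbs1 (thrombospondin 1) from 4.91 and 3.85 to 107, 158 and 199 (5.14). Sparc, a collagen-binding glycoprotein, rose from 2.32 and 2.45 to 308, 275 and 634 CPM, the largest fold change (7.41) among the genes named with at least 1 CPM in both cultures. Calls for basement membrane genes depended on the offsets: 13 of 20 were called higher and 2 lower, but 5 and 10 with length and GC offsets. Lamb3, a laminin chain of epithelia, was called lower both ways (-1.86 and, with the offsets, -2.86). Among proteases, Mmp12, the macrophage elastase, had no culture count and read 55.2, 62.2 and 27.4 CPM, at least 462-fold higher. Plat, the tissue plasminogen activator, fell by 1.81 on the log2 scale.

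Calls for receptors of matrix moved with the offsets as well. Of 24 integrins and collagen receptors 10 were called higher and 1 lower, Itga7 (-0.96), a laminin receptor not called without culture 1 or tumour 1 (edgeR adjusted p = 0.148 and 0.0723). With length and GC offsets 5 were higher and 7 lower. Itgb4, the laminin-binding chain of hemidesmosomes, rose from 38.3 and 30.3 to 309, 294 and 246 CPM (3.04, SE 0.18, edgeR adjusted p = 2.49e-06) and was called higher with the offsets too (1.49). Itga1, the collagen receptor closest to Itga2, read 56.8 and 47.8 CPM in culture and 84.8, 83.1 and 112 in tumours (0.84, edgeR adjusted p = 0.00164) and was not called with the offsets (-0.11). Lair1, an inhibitory collagen receptor of leukocytes, had no culture count and read 3.07, 3.21 and 4.59 CPM.

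Ligands of the EGF receptor that the line transcribed in culture fell. Areg (amphiregulin) went from 234 and 262 to 13.7, 8.54 and 12.9 CPM (-4.40, SE 0.20, edgeR adjusted p = 1.22e-06). Ereg (epiregulin) went from 112 and 119.8 to 7.5, 6.16 and 10.6 CPM (-3.83). All tumours were far below both cultures in each. Dusp6, the phosphatase that reports ERK activity, fell by 1.59 on the log2 scale. Of 17 ERK feedback genes 8 were called lower and 6 higher, among them Spred2 (1.57). For this list 9 were lower and 2 higher with length and GC offsets, and 8 lower and 8 higher with library totals. Ankrd1 (-2.77) and Ccn1 (-1.68), targets of YAP, fell, while Amotl1 (2.11) and Tead1 (1.87) rose, so that 6 of 20 YAP and TEAD genes were called lower and 6 higher. With length and GC offsets 11 were lower and 4 higher, the median going from 0.14 to -0.57, and with library totals 3 were lower and 14 higher. Id1 (-2.03) and Id3 (-3.11), targets of BMP signalling, fell. Of 21 growth factors and receptors, 5 with at most 3 culture counts, 15 were called higher and 1 lower. With length and GC offsets 11 of them were higher and 4 lower, the median going from 1.42 to 0.77. Among those called higher was Fgfr4, an FGF receptor of endoderm, from 11.3 and 8.53 to 65.1, 71.3 and 81.6 CPM (2.87). Immediate early genes were mixed, with 13 higher and 10 lower of 26: Egr1 rose from 19.3 and 14.9 to 59.4, 116 and 78.2 CPM, and Klf6 fell by 1.71. Enzymatic dissociation can induce such genes, and its part was not tested.

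**Figure D4:**
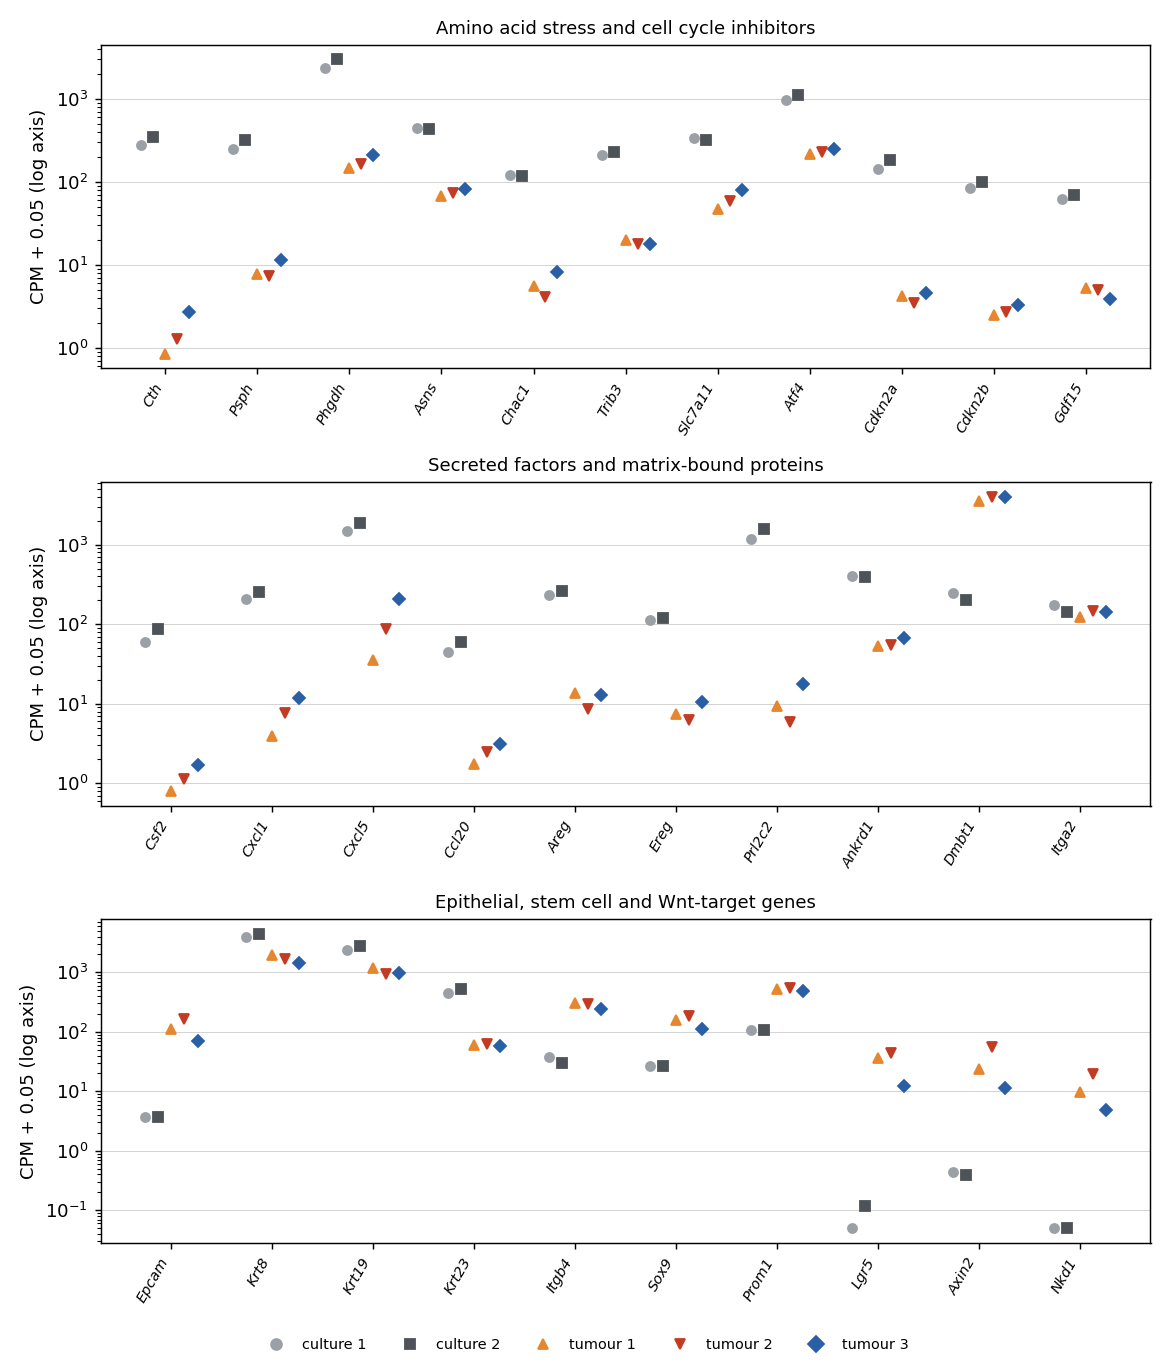
Level of genes transcribed by the cultured line or gained in tumours (y axis, CPM + 0.05 on a log axis; x axis, genes) in each wild-type library, 1 point per library. Grey symbols are the cultures and coloured symbols the tumours. The genes of amino acid stress, Cdkn2a, Cdkn2b, Csf2 and Areg lie lower in all tumours, Dmbt1, Epcam, Itgb4 and the Wnt targets lie higher, and Itga2 overlaps.

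Secreted immune signals of the line were among the deepest losses. Csf2 (GM-CSF), a growth factor of myeloid cells, went from 59.5 and 86.9 to 0.755, 1.09 and 1.66 CPM (-5.94, SE 0.28, edgeR adjusted p = 1.26e-06). Cxcl1, which attracts neutrophils, went from 207 and 255 to 3.93, 7.66 and 11.7 CPM (-4.88), and Cxcl5, another ligand of their receptor, from 1479 and 1889 to 35.4, 88.2 and 208 (-3.93). Within the tumours both were lowest in tumour 1 and highest in tumour 3, as were Csf3r and S100a9. Ccl20, a ligand for CCR6, fell by 4.43 on the log2 scale, and Ptgs2 (cyclooxygenase 2) fell by 3.10. Ligands made in response to interferon gamma went up: Cxcl9, which attracts T cells, read 0.265 and 0.14 CPM in culture and 16.2, 21.1 and 6.43 in tumours (6.11, edgeR adjusted p = 4.98e-05). Cxcl10 rose by 4.37. Ccl5, made by T cells among others, read 0.133 and 0 CPM in culture and 1.11, 0.621 and 0.656 in tumours, a call (edgeR adjusted p = 0.00687) lost without culture 2 (edgeR adjusted p = 0.0639). Of 34 chemokines and colony-stimulating factors 11 were called higher and 11 lower. C3, the central component of complement, rose from 11.6 and 7.69 to 157, 411 and 356 CPM (4.99).

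Other genes that fell by the widest margins were proliferin genes of the placental prolactin family. Prl2c2 read 1170 and 1552 CPM in culture and 9.31, 5.9 and 17.5 in tumours, and Prl2c3 read 291 and 369 and then 6.14, 3.16 and 4.85. Prl2c5 had 188 counts in the cultures and 3 in the tumours. The family has near-identical copies, so the split of reads between them is uncertain. S100a7a (-5.84), Atp6v1c2, a proton pump subunit (-5.93), Adcy1, an adenylate cyclase (-5.94), Col26a1, a collagen (-7.20), Tmem179, a membrane protein (-5.37), and Trdv4, a variable segment of the T cell receptor delta chain (-7.15), completed this group. Trdv4 read 20.8 and 31.7 CPM in culture and 0.101, 0.311 and 0.131 in tumours. Genes with at least 1 CPM in both cultures that rose most, after Sparc, included Adamts1, a matrix protease (6.13), F5, coagulation factor V (5.99), Sp100, a nuclear body protein (5.25), Lcp1, an actin-bundling protein of leukocytes (5.09), Dram1, a lysosomal p53 target (5.04), and Aebp1, a matrix protein (4.93).

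Interferon responses were raised in all tumours. Type I interferons and interferon gamma leave separate but overlapping sets of induced genes. Of 26 genes of the type I response 23 were called higher and none lower, with a median of 2.15 against 0.12 over all genes, and 25 were higher with length and GC offsets. Oas2, an antiviral enzyme, went from 3.91 and 2.45 to 68.2, 57 and 91.9 CPM (4.50, SE 0.29, edgeR adjusted p = 3.40e-06). Cmpk2, a nucleotide kinase, went from 0.597 and 0.49 to 24.3, 19 and 22 CPM (5.30). The 3 tumours lay above both cultures in each gene.

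Genes of the interferon-gamma response showed a different order of tumours. Iigp1, an immunity-related GTPase, had no culture count and read 70.7, 88.3 and 13.6 CPM, and Gbp2, a guanylate-binding protein, went from 0.265 and 0.699 to 57.3, 71.6 and 22 CPM (6.70, edgeR adjusted p = 2.51e-05). Tumour 3, which also had the least Cd8a and Gzmb, was lowest in both. Nlrc5, the activator of MHC class I genes, read 0.199 and 0.49 CPM in culture and 64.4, 64.5 and 33.3 in tumours (7.28, SE 0.48). Of 24 listed genes 19 were called higher and 1 lower, Ifngr1, a chain of the receptor (-0.45). At most 3 culture counts were found for 8 of those listed, which could hardly be called lower. Ifngr1 was not called with length and GC offsets (-0.03), without tumour 1 or without tumour 2 (edgeR adjusted p = 0.0894 and 0.0866), and was at 0.07 with library totals. Cd274 (PD-L1) read 6.77 and 6.22 CPM in culture and 11.3, 11.2 and 7.87 in tumours, and its call (0.64, edgeR adjusted p = 0.0391) was lost when any library but tumour 3 was left out (edgeR adjusted p from 0.103 to 0.182).

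Promoters of this list were searched for TTCNNNGAA, the palindrome bound by STAT dimers, in the same windows. It was present in 8.3% of 32851 windows in at least 1 window of 9.55% of 27025 genes, and in that of 7 of the 17 listed genes with a window (41.2%). Irgm2, Gbp7 and Igtp are shown, taken from the genes with a match whose transcripts rose. Gbp2, which also rose, had no match in its window. The windows are written as above with the motif in capitals, the first match starting -75, -106 and -45 bases from the start.
Irgm2 (chr11:58214727-58215026, plus strand): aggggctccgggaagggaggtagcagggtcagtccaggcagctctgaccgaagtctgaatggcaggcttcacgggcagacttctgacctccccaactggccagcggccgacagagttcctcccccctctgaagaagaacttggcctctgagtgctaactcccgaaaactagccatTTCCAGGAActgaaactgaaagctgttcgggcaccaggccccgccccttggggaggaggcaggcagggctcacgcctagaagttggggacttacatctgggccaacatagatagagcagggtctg
Gbp7 (chr3:142530086-142530385, plus strand): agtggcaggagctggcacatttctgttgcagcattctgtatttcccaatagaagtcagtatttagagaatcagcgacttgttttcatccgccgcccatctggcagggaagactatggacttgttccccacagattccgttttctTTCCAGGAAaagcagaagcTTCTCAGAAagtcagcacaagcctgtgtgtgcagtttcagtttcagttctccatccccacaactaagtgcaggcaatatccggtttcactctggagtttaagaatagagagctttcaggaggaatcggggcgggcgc
Igtp (chr11:58199306-58199605, plus strand): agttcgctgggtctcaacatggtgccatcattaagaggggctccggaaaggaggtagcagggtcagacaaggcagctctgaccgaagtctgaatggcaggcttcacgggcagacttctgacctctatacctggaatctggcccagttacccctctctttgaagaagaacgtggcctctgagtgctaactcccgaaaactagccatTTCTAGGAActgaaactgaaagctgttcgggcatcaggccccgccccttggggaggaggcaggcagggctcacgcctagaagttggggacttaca
Irgm2 and Igtp are immunity-related GTPases and Gbp7 a guanylate-binding protein. Irgm2 went from 4.51 and 4.48 to 36.9, 44.5 and 28.1 CPM (3.02), and Gbp7 from 1.26 and 1.96 to 48.5, 49.2 and 33.8 (4.77). Igtp went from 2.59 and 4.13 to 22.9, 24.9 and 12.3 CPM (2.58). Every tumour lay above both cultures in the 3 genes.

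Antigen presentation rose with the interferon genes. Of 22 genes of MHC class I presentation 15 were called higher and 4 lower. B2m, the light chain of all class I molecules, went from 108 and 112 to 598, 607 and 355 CPM (2.24, SE 0.24, edgeR adjusted p = 3.45e-05). Tap1, the peptide transporter, went from 9.69 and 11.1 to 126, 128 and 66.3 CPM (3.36), and Psmb8, of the immunoproteasome, from 7.83 and 9.3 to 65.2, 72.3 and 43.2 (2.81). Tumour 3 was the lowest tumour in all of these and still above both cultures. H2-K1, a classical heavy chain, rose by 1.45 and H2-Q7, a nonclassical one, by 5.22, though class I genes are near-identical and the assignment of reads among them is uncertain. Those called lower included the chaperone Pdia3 (-1.11) and the proteasome activator Psme2 (-1.21), the latter not called with length and GC offsets (-0.27). Of 12 genes of MHC class II presentation 9 were called higher and none lower, and 7 of those listed had at most 3 culture counts, 2 of them not tested. H2-Ab1, a class II chain of antigen-presenting cells, had no culture count and read 75.5, 94.5 and 66.5 CPM, at least 764-fold higher. H2-Eb1, another, read 65.4, 77.5 and 56.2 CPM, at least 644-fold higher. Which cells made these transcripts was not tested. Beside them, the 6 defining dendritic cell markers summed to 4.31 and 3.5 CPM in culture and 3.32, 3.68 and 5.07 in tumours. These sums overlapped, but Xcr1, Cd209a and Siglech had no culture count, so the culture sum came from the other markers. Of 13 dendritic cell genes tested 9 were called higher and none lower, and 8 of the 16 listed had at most 3 culture counts.

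**Figure D5:**
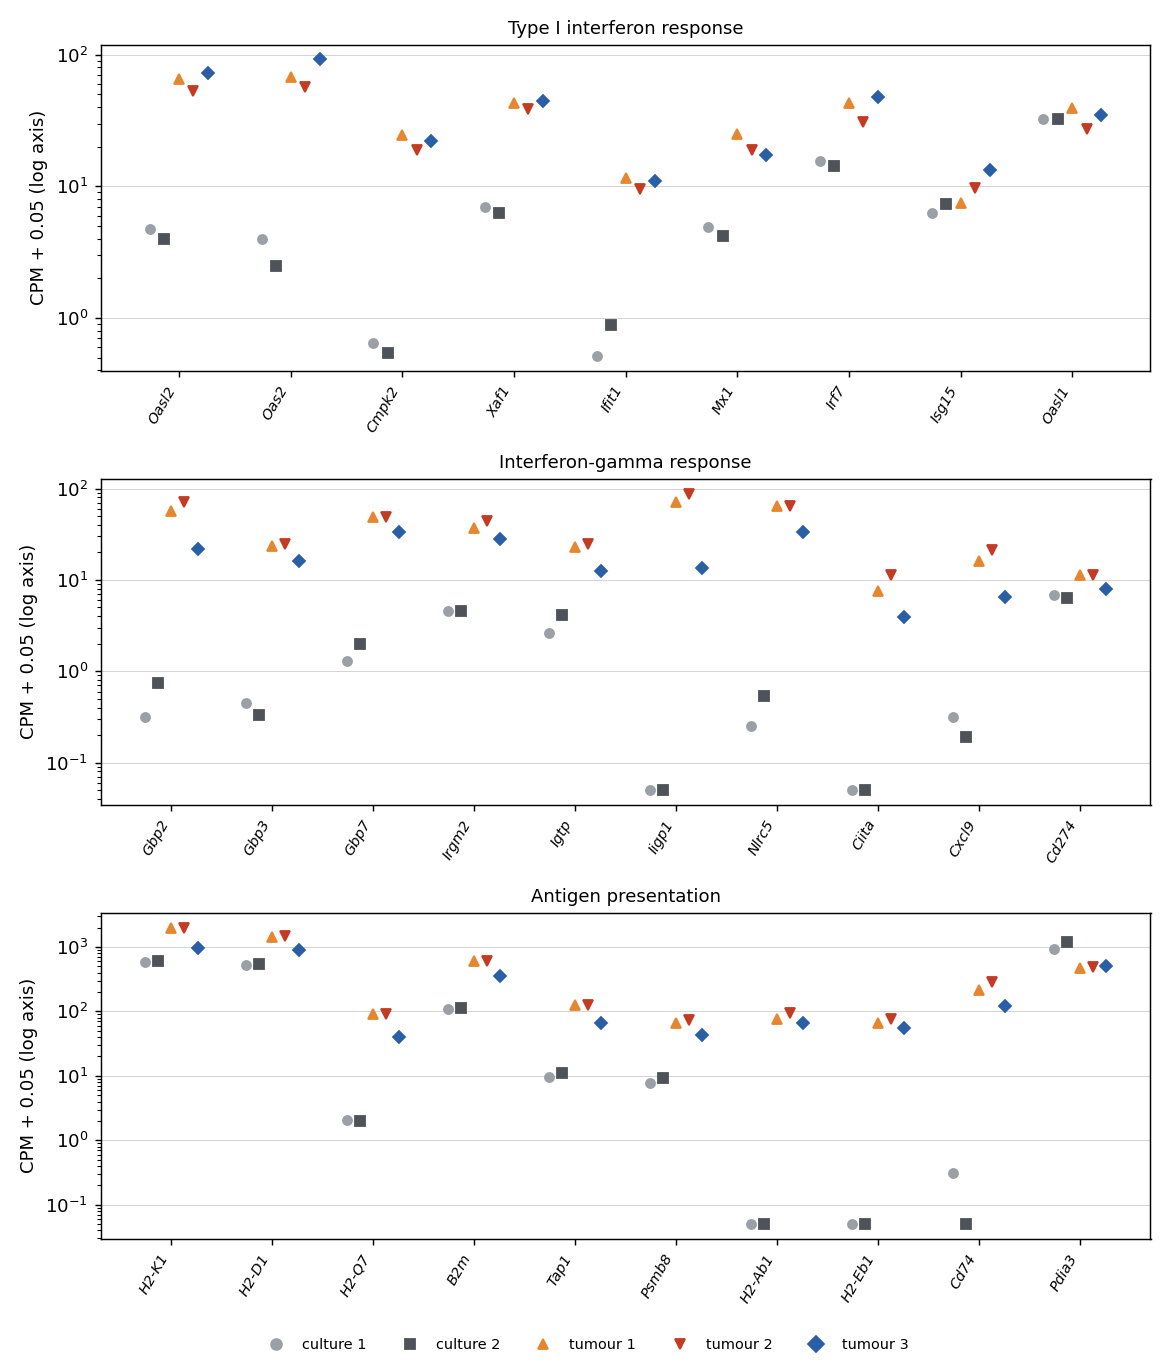
Level of interferon-response and antigen-presentation genes in each wild-type library (y axis, CPM + 0.05 on a log axis; x axis, genes), 1 point per library; points at 0.05 have no count. All 3 tumours lie above both cultures for the plotted genes other than Oasl1, which overlaps, and Pdia3, which lies lower in tumours, and tumour 3 is the lowest tumour for Gbp2, Iigp1, Nlrc5, H2-K1 and B2m.

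Finally, the wild-type change was set beside that of the knockout line in 1 fit of all 9 libraries. Of 16793 genes tested, 8048 were called in the same direction in both lines, 73.0% of the wild-type calls and 80.9% of the knockout calls. Of all genes tested, 36.1% and 29.6% were called higher and lower in wild-type tumours, and 32.9% and 26.4% in knockout tumours. The comparisons share no library, but they share setting, batch and a trend with transcript length. The part of these in the agreement was not tested. The difference between the 2 changes was called in 697 genes where the knockout line's change was more positive (4.15%) and in 258 where it was more negative (1.54%). These counts moved with single libraries. The more positive ones numbered 442, 273, 435 and 414 without wild-type culture 1, culture 2, tumour 1 and tumour 2, 232 and 307 without knockout culture 1 and culture 2, and 1148 without the second knockout tumour. The more negative ones numbered 129, 44, 146, 104, 56, 117 and 503 in the same order. In the cholesterol synthesis list, 19 of 24 members had a more positive change in the knockout line, and none a more negative one. That number was 10 without wild-type culture 2, 12 without wild-type tumour 1 or tumour 2, 9 without knockout culture 1 and 12 without knockout culture 2. In the fit of all libraries 17 members were called lower and 3 higher in wild-type tumours, where 29.6% and 36.1% of all genes were. In knockout tumours 15 were called higher and none lower, where 32.9% and 26.4% of all genes were. Hmgcs1, the HMG-CoA synthase of the pathway, read 298 and 322 against 234, 218 and 292 CPM in wild-type and 101 and 101 against 249 and 204 in knockout libraries, the cultures first (difference 1.49, SE 0.23, edgeR adjusted p = 0.0047). The knockout cultures were the low group. In the type I interferon list, 18 of 26 had a more positive change in the knockout line and none a more negative one, and every call in either line was upward. That number was 11 without wild-type culture 1 or culture 2, 10 without knockout culture 1 or culture 2, and at least 13 without any other library. Oas2 read 3.73 and 2.29 against 65.9, 55.3 and 89.5 CPM in wild-type and 0.0556 and 0.417 against 122 and 169.9 in knockout libraries. Of the ATF4 list, 3 of 24 had a more negative change in the knockout line, with 23 called lower there. Without the second knockout tumour 12 did, and without wild-type culture 2, tumour 1 or tumour 2, or knockout culture 1 or culture 2, 2 did. Cdkn2a read 152 and 159 against 76.2 and 17.8 CPM in the knockout line (difference 3.56, SE 0.64, edgeR adjusted p = 0.00957). The difference was not called when wild-type culture 2 (edgeR adjusted p = 0.0515), knockout culture 1 (0.0659) or knockout culture 2 (0.0525) was left out. The widest differences named by the rule went both ways. Fgfr4, which rose in wild-type tumours, read 0.946 and 0.625 against 0.0584 and 0.378 CPM in the knockout line (difference -4.72, edgeR adjusted p = 0.00289). Lcn2, an iron-binding protein of inflamed epithelium, read 19.97 and 16.6 against 5.79, 25.3 and 44.1 CPM in wild-type and 36.3 and 29.7 against 0.877 and 0.811 in knockout libraries (difference -5.74, edgeR adjusted p = 0.00831, and 0.0554 without wild-type culture 2). Aqp5, a water channel, and Cxcl3, a neutrophil chemokine, differed by -5.16 and -4.64, the latter not called when any 1 of the 4 cultures was left out (edgeR adjusted p of 0.0621 to 0.0915). Tff3, which fell in wild-type tumours, read 2.5 and 3.61 against 36.8 and 4.11 CPM in the knockout line (difference 8.24, edgeR adjusted p = 0.00366). Slfn5, an interferon-induced gene, read 2.21 and 1.04 against 30.1, 18.4 and 31.4 CPM in wild-type and 0 and 0 against 21.3 and 56.8 in knockout libraries (edgeR adjusted p = 0.0224 for the difference). That call was lost without wild-type culture 1 (edgeR adjusted p = 0.0805), knockout culture 1 (0.118) or knockout culture 2 (0.0751).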

How the data were processed

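RNA of KPCWT and KPC49bKO cultures and tumours was sequenced as poly(A) libraries with molecular identifiers, per the labels' protocols. The authors deposited raw gene counts in a table for cultures and a table for tumours, each of 49671 Ensembl genes. The submitters' processing notes name fastp 0.23.1, STAR 2.5.2b, featureCounts (Subread 1.5.2), DESeq2 and the build GRCm38. Neither the annotation release nor the strand setting was stated in the sources used here, so antisense and overlapping genes cannot be told apart. The labels' protocols mention ERCC spike-ins, and 0 such rows were among those used here.

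Counts of the 5 wild-type libraries were joined by Ensembl ID and fitted together in edgeR 4.0.16 (filterByExpr with a minimum of 10 counts and a total of 15, TMM, quasi-likelihood test, prior count 0.125), with limma 3.58.1 and DESeq2 1.42.0 as alternatives in R 4.3.3. Symbols came from GENCODE M21, which held 49412 of the IDs. The difference between lines was fitted on all 9 libraries. Genes with no count in culture are given against a floor of 3 counts over both cultures, and ratios on 1 to 3 counts have an exact 95% interval, covering counting error only. The offsets were loess fits of each library's log2 level on transcript length and GC content, over 8521 genes with at least 10 CPM.

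The groups, 57 gene lists with 1044 distinct genes and the rule for names were chosen with earlier results of these data known. The rule took Itga2, the 12 genes of largest rise among those with at least 1 CPM in both cultures, the 12 of highest tumour level among those with at most 3 culture counts, the 15 of deepest fall, up to 4 members of each list by smallest p, up to 2 against its majority, defining markers, 19 fixed genes and 10 genes of largest difference between lines. Not all are printed, and the results of some genes are not reported here. Axin2, B2m, Cebpb, Chac1, Ddit4, Dsp, Gbp2, H2-K1, Hmgcs1, Igtp, Jup, Pycr1 and Spp1 fall outside it and were chosen after their values were seen. Alternatives were other scalings, filters and tools, a replicate block, a fold threshold, leaving out each library, 1 fit of all libraries and, added after seeing the data, length and GC offsets.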

Additional observations from a re-analysis of the deposited data

Results flagged for a closer look

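Each result below was singled out because the change from culture to tumour differed between the knockout and the wild-type line in the edgeR test of that difference. Of all genes tested, 5.69% passed it, and the counts moved with single libraries as described above. Values in parentheses are the log2 difference between the changes, knockout minus wild type. No group has 4 or more samples, so no single sample could be tested as far from its group. Of the 46 genes, 25 lost the call when 1 library was left out. Those still called whichever library was left out were Aldh1a1, Apoe, Aqp5, Ccl20, Ccn1, Cebpb, Dmbt1, Egr1, Fgfr4, Gdf15, Hmgcs1, Insig1, Krt19, Nqo1, Oas2, Pmvk, Psmb8, Ptgs2, Pycr1, Sp100 and Tff3. Without knockout culture 1 or 2, 23 and 21 calls were lost, without wild-type culture 1 or 2, 16 and 21, and without wild-type tumour 1, 2 or 3, 8, 12 and 2. Without the first or second knockout tumour 4 and 2 were lost.

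The sterol and triglyceride genes Insig1 (2.21), Hmgcs1 (1.49), Msmo1 (1.45), Pmvk (1.43) and Dgat2 (1.5) changed more positively in the knockout line. So did the interferon and presentation genes Oas2 (4.81), Psmb8 (5.12), Tap1 (2.61) and Irgm2 (2.36) and the cell cycle inhibitors Cdkn2a (3.56) and Cdkn2b (2.98). Epithelial and gut genes on that side were Krt8 (1.2), Krt19 (1.49), Ivl (2.89), Dmbt1 (1.38), Anxa10 (1.48), Tff1 (1.97) and Tff3 (8.24). Metabolic and stress genes were Ldha (1.08), Nqo1 (2.17), Aldh1a1 (4.3), Car9 (4.4) and Apoe (3.28), and secreted or surface proteins Lif (1.28), Havcr2 (3.86) and Prl2c3 (1.83). The BMP target Id1 differed by 0.932.

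More negative changes in the knockout line were found for the cytokine and inflammation genes Cxcl3 (-4.64), Ccl20 (-3.19), Ptgs2 (-2.67), Gdf15 (-1.68) and Lcn2 (-5.74). Transcription factors on that side were Egr1 (-2.98), Snai2 (-1.34) and Cebpb (-1.86). The others were Fgfr4 (-4.72), Aqp5 (-5.16), Dram1 (-3.51), Ccn1 (-2.23), Stra6 (-1.75), Pycr1 (-1.57) and Nop56 (-1.02).

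For 4 genes a group had at most 3 counts, so the adjusted p of edgeR is given in place of a difference: 0.0259 for Epcam, 0.0209 for Gbp7, 0.0224 for Slfn5 and 0.00357 for Sp100.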

How the results depend on the processing

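Against 6091 genes higher and 5264 lower in wild-type tumours, counts stayed within 1.5 times under most settings. Exceptions were library totals, with 3211 lower, and a test against a fold of 2, with 2998 higher and 2088 lower. Leaving out 1 library gave 4580 to 6364 higher and 4304 to 5434 lower. For the difference between lines (697 and 258), no filter gave 1308 and 567, DESeq2 1063 and 562, a fold of 2 gave 147 and 24, and leaving out 1 library 232 to 1148 and 44 to 503. Among 182 named genes, the sign turned in 8 with length and GC offsets: Cad (-0.78), Edem1 (-0.070), Fasn (-0.39), Itga1 (-0.11), Oasl1 (-0.068), S100a4 (0.74), Spp1 (0.36) and Srebf2 (-0.60). It turned in 5 with library totals: Cebpb (0.48), Hmgcs1 (0.16), Ifngr1 (0.068), Itga2 (0.28) and Itgb1 (0.22). With TMM on culture-expressed genes Cebpb (0.28), Itga2 (0.084) and Itgb1 (0.016) turned, Cebpb also in 1 fit of all libraries (0.0055) and with a CPM filter (0.017). Leaving out 1 library moved Cebpb from -0.13 to 0.19, Lcn2 from -0.25 to 0.93 and Oasl1 from -0.041 to 0.22. The cause of these turns was not tested.

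Deviations of same-numbered cultures and tumours gave correlations of 0.03 and -0.03. Each culture was centred on the mean of both, so their deviations mirror each other. The check therefore could not tell whether the numbers pair samples. With the replicate block 6373 genes were higher and 5443 lower, and Lcn2 was called lower (-0.53). No block was fitted for the difference between lines, since the second knockout tumour carries no matching number. The block has no pair for tumour 3, which adds nothing to it. Cd3e, Myh4, Ckm and S100a9 were not called when either culture was left out, which leaves 1 culture against 3 tumours, the lone culture being assumed to vary like the tumours. Genes with 3 or fewer counts in a group have no usable fold.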

Other observations

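Other lists filled in the picture of the line. Retinoid genes moved both ways, with 7 called higher and 4 lower of 14: Rdh10, a retinol dehydrogenase, went from 1030 and 1156 CPM in culture to 286, 320.0 and 309.9 in tumours (-1.84, edgeR adjusted p = 5.83e-06), and Stra6, a retinol transporter, from 54.7 and 49.9 to 175, 251 and 238 (2.08). Of 18 fatty acid genes 7 were called higher and 8 lower. Me1, which supplies NADPH (-1.57), and Dgat2, which makes triglyceride (-1.43), fell, while Fasn, fatty acid synthase, was at 1.57, and at -0.39 and not called with length and GC offsets. Of 23 checkpoint ligands and suppressors 12 were called higher and 6 lower, Lgals3 (galectin 3) going from 759 and 969.8 to 183, 162 and 138 CPM (-2.42). Of 20 NF-kB genes 6 were called higher, such as Vcam1, an adhesion molecule (1.95), and 5 lower, such as Tnfaip2 (-1.41). For this list 4 were higher and 8 lower with length and GC offsets, and 11 higher and 2 lower with library totals. Of 25 complement genes, 8 with at most 3 culture counts, 15 were called higher and 3 lower. The TGF-beta list had 9 higher and 8 lower of 20, with 5 lower without tumour 2. The mesenchymal list had 11 higher and 5 lower of 20, with 3 lower without culture 2 or without tumour 1. Endoderm factors had 4 higher and 2 lower of 18, with 7 higher without tumour 3. With the offsets 3 endoderm factors were higher and 5 lower, the median going from 0.26 to -0.21. Drivers and tumour suppressors had 5 higher and 3 lower of 12, and 2 and 4 with the offsets. Of 5 metallothionein and zinc genes 1 was called higher and 3 lower, but 0 lower without culture 1 or with library totals and 1 without culture 2. Of 13 heat shock genes 6 were called higher (3 without culture 1 and 2 without culture 2) and 4 lower, among them Hspe1, a mitochondrial chaperonin (-2.36).

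Lists of other cell types gave the following counts. Of 16 dendritic cell genes 9 were called higher and of 15 B cell genes 3. Of 8 lymphatic genes 5 and of 10 Schwann cell genes 4 were. None was called lower in these 4 lists. At most 3 culture counts were found for 8, 14, 7 and 5 of those listed, in this order. Such genes, where tested, passed the filter through the tumours alone and could hardly be called lower. Of the B cell genes 11 were not tested. The mast cell, eosinophil and basophil list had 4 of 14 higher (2 without culture 2, tumour 1 or tumour 2) and 2 lower, both high in culture: Il5ra, a chain of the interleukin 5 receptor, went from 387 and 425 CPM to 69.5, 47.2 and 135 (-2.27, edgeR adjusted p = 2.97e-04), and Mcpt8, a basophil protease, was at -1.31 and not called with the offsets (-0.17). Erythroid and platelet genes had 4 of 13 higher (2 without culture 1 or culture 2) and 1 lower, the platelet chemokine Ppbp (-2.43). Adipocyte genes had 1 higher and 2 lower of 10, with Pparg, the adipocyte regulator, at 149 and 147 CPM in culture and 83, 76.2 and 62.6 in tumours (-1.01). Epidermal genes had 2 higher and 2 lower of 12, Ivl (involucrin) going from 73.8 and 83.2 to 12.3, 9.68 and 8.31 CPM (-2.96). Of 26 matrix proteases and crosslinkers 16 were called higher and 3 lower.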
